A study of Homo sapiens with 24 samples.

Results

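The TAM receptors are 3 receptor tyrosine kinases, AXL, TYRO3 and MERTK, and their ligands are GAS6 and protein S, the product of PROS1. These 5 genes, chosen as the family with its ligands and named here by their symbols, are described among the 60675 identifiers of a gene count table from MIA PaCa-2 cells, a human pancreatic carcinoma line. The study asked which genes respond when the transcription factor C/EBPδ is switched on in these cells. RNA of a C/EBPδ-inducible line and of a CTRL line was sequenced after 0, 8, 24 and 48 h with doxycycline (2 µg/mL), with 3 libraries in each of 8 groups and 24 in all. The inducible cells carried a Tet-On vector with the CEBPD cDNA and the green fluorophore mVenus, and were a pool of clones. The CTRL cells carried the same vector without the cDNA, with the red fluorophore mCherry. Both lines received doxycycline, so that the CTRL cells share the drug and the time in culture, but a difference between the lines that is already present at 0 h cannot be told apart from a difference between clones or fluorophores. The labels list the doxycycline dose for the 0 h libraries as well, and the study's methods describe cells without doxycycline, which is the reading used here.

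The TAM receptors are activated by GAS6 and, for TYRO3 and MERTK, by protein S. Both ligands carry a Gla domain that has to be carboxylated with the help of vitamin K, and that then binds phosphatidylserine on the surface of dying cells or vesicles, so that the ligand forms a bridge between this lipid and the receptor. In macrophages MERTK and AXL serve the uptake of apoptotic cells and dampen inflammatory signalling. In carcinoma cells AXL is known for its association with a mesenchymal state, migration and resistance to inhibitors of other receptor tyrosine kinases.

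The library totals ran from 12731237 to 22598595 counts, and a count of 3 corresponded to 0.132 to 0.230 CPM (counts scaled to a common library total, with TMM factors) across the libraries. CEBPD itself stood at 21.5 ± 2.30 CPM in inducible cells at 0 h and at 246 ± 17.0, 308 ± 10.9 and 205 ± 6.50 CPM at 8, 24 and 48 h, against group means of 1.90 to 4.01 CPM in CTRL cells (SD, n = 3). No inducible library overlapped a CTRL library in CEBPD, and the inducible cells carried more CEBPD mRNA than CTRL cells before doxycycline was added. The study considers this excess probably due to leakiness of the Tet-On construct. Its part in the other line differences at 0 h was not tested. Of the markers of the line, VIM was abundant in every library (5372 to 7024 CPM) and CDKN2A, which is deleted in MIA PaCa-2, had 0 to 17 counts. The lines differed in keratins, with KRT8 at 74.1 ± 2.18 CPM in inducible and 1561 ± 55.2 CPM in CTRL cells at 0 h. Of 7 macrophage markers, TYROBP was at 0 in every library, PTPRC had at most 1 count and CSF1R at most 3, whereas ITGAM reached 54 counts. The 7 together summed to 0.60 to 1.79 CPM in CTRL and 1.92 to 3.09 CPM in inducible libraries. The part of these marker differences in the results below was not tested.

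AXL, the receptor bound by GAS6 alone, was the most abundant family member, and at the FDR cut-off of 0.01 it was the 1 member whose change from 0 h was called different between the lines. GAS6 and PROS1 missed that cut-off at 48 h with an FDR of 0.0298 and 0.050. In inducible cells its mRNA fell 1.99-fold by 24 h and 2.23-fold by 48 h, while in CTRL cells it fell 1.11-fold and 1.17-fold. It began higher in inducible than in CTRL cells and ended lower. The AXL gene (ENSG00000167601) lies on chromosome 19 at 41219223 to 41261766 on the plus strand of GRCh38, and 67 of its 5134 exonic bases (1.31%) overlap a gene on the other strand.

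The inducible libraries held 234, 247 and 233 CPM of AXL at 0 h, 232, 218 and 223 CPM at 8 h, 119, 117 and 123 CPM at 24 h, and 109, 106 and 110.1 CPM at 48 h. The CTRL libraries held 158, 150.1 and 154 CPM at 0 h, 178, 178 and 164 CPM at 8 h, 137, 142 and 141 CPM at 24 h, and 129.8, 136 and 130.4 CPM at 48 h. Every inducible library exceeded every CTRL library at 0 and 8 h, and every inducible library lay under every CTRL library at 24 and 48 h. The values behind these groups were 1894 to 5415 counts, so that counting error was small beside the differences.

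**Figure D1:**
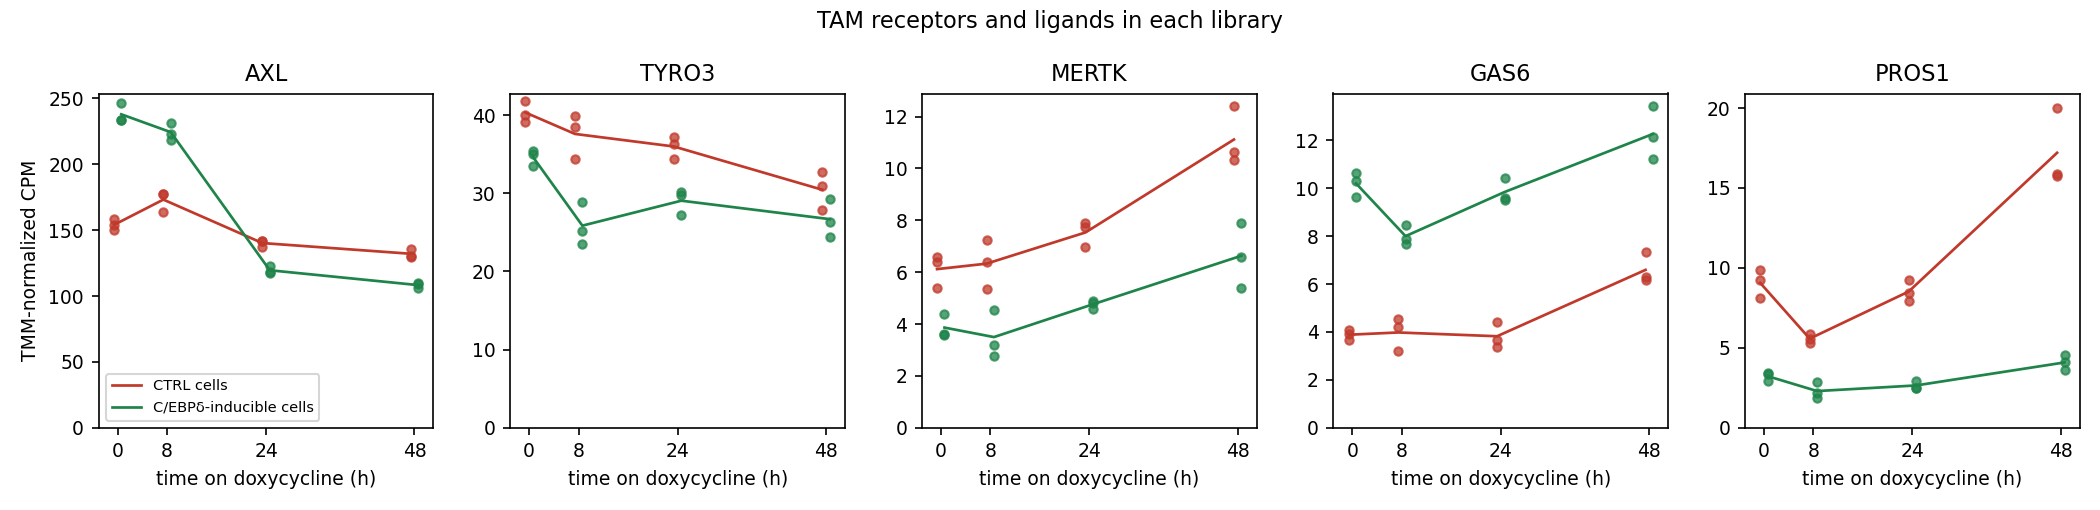
TMM-normalized CPM of the 5 genes in each library against hours on doxycycline, with each panel on its own scale from 0. Points are libraries (3 per group), lines join group means, green marks C/EBPδ-inducible cells and red CTRL cells. AXL crosses between 8 and 24 h, from 238 against 154 CPM at 0 h to 108 against 132 CPM at 48 h, whereas GAS6 stays higher and PROS1 and MERTK stay lower in inducible cells at every time.

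Against CTRL cells, AXL was higher in inducible cells at 0 h by 0.62 on the log2 scale (SE 0.0338, FDR = 7.69e-12) and at 8 h by 0.39 (SE 0.0531, FDR = 0.000114). At 24 h the difference was -0.22 (SE 0.0349, FDR = 4.90e-06) and at 48 h -0.30 (SE 0.0495, FDR = 0.000205). Within inducible cells the change from 0 h was -0.079 at 8 h (SE 0.0331, FDR = 0.0611), which did not pass the FDR cut-off of 0.01. It was -0.996 at 24 h (SE 0.0342, FDR = 2.20e-16) and -1.16 at 48 h (SE 0.0351, FDR = 2.78e-19). Epithelial keratins moved in the same comparison, with KRT8 at 74.1 CPM at 0 h and 36.5 CPM at 24 h in inducible cells (-1.03) and a fall of 0.28 in CTRL cells, KRT19 at -1.10 and KRT18 at -0.68, while VIM was not called (-0.036) and CDH1 rose from 0.120 to 1.76 CPM. Of the macrophage markers 2 were tested at 24 h, CD14 (0.79, FDR = 0.0996) and ITGAM (-0.40, FDR = 0.285), and 0 were called by edgeR, DESeq2 or the analysis of variance, with 1 at an unadjusted p under 0.05, and 0 in the interaction by any of them, with 0 at that p. The part of these markers in the AXL change was not tested.

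Most of the AXL fall came between 8 and 24 h, where AXL fell by 0.92 (FDR = 4.87e-14), and a further fall of 0.16 followed between 24 and 48 h (FDR = 0.00345). That last step was no longer called without the third library of 24 h (FDR = 0.0172) or the second of 48 h (FDR = 0.0436), or in the analysis of variance (FDR = 0.0397).

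In CTRL cells AXL changed far less. Its difference from 0 h was 0.20 at 8 h (FDR = 0.0720), -0.15 at 24 h (FDR = 0.00741) and -0.22 at 48 h (FDR = 0.00171). The 24 h call was lost without any 1 of 5 of the 6 libraries (FDR = 0.0139 to 0.0518, the second library of 0 h being the exception) and the 48 h call without the third library of 48 h (FDR = 0.0129) or with the replicate number as a block (FDR = 0.0116). The change from 8 to 24 h was -0.34 (FDR = 0.00390) and was lost in the block (FDR = 0.0119), and without the second library of 8 h or any 1 library of 24 h (FDR = 0.0375 to 0.0425). In the analysis of variance the CTRL calls at 24 h, at 48 h and from 8 to 24 h were lost (FDR = 0.0790, 0.0106 and 0.0691). A model of all 24 libraries lost the CTRL call at 24 h (FDR = 0.0191) and called the CTRL rise at 8 h (FDR = 0.00355).

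The test of the difference itself, the interaction of line and time, gave -0.25 for AXL at 8 h (SE 0.0622, FDR = 0.0292), -0.84 at 24 h (SE 0.0472, FDR = 3.46e-12) and -0.94 at 48 h (SE 0.0557, FDR = 1.83e-09). The 24 and 48 h values were called in every leave-one-out fit, with ranges of -0.86 to -0.81 and -0.96 to -0.91, whereas the 8 h value passed only without the third CTRL library of 8 h (FDR = 0.00306) among these fits. AXL was among the genes that the study picked from its 24 h comparison for follow-up, so that its lower level in inducible cells at 24 h is not independent evidence here. The same holds for its fall and its interaction at 24 h, which use the same inducible libraries of 24 h.

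Since the manipulated factor is a DNA-binding protein, a promoter window is shown for AXL and for TYRO3. These are the members called lower at 24 h than at 0 h within inducible cells (TYRO3 not under every alternative). Each window runs from 250 bases before to 50 after a RefSeq start site (GRCh38.p14, each read on its own strand, 5′ to 3′). All 5 members had at least 1 window in the RefSeq table. Capitals mark a match to the C/EBP core letters TTGCNNAA.
AXL, chr19:41218973-41219272, plus strand: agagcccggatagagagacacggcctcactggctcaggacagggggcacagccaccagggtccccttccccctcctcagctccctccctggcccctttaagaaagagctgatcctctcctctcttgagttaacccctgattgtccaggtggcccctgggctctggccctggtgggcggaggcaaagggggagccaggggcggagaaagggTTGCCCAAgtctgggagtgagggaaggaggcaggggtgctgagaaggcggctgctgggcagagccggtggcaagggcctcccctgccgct
TYRO3, chr15:41558962-41559261, plus strand: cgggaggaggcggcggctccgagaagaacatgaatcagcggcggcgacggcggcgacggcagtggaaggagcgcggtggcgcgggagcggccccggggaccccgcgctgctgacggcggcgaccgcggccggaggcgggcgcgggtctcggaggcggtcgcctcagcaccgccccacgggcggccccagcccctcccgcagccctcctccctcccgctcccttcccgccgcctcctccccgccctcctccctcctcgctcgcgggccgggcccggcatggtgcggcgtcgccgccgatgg
The AXL window held the letters TTGCCCAA at bases 211 to 218, whose first base is at -40 from the start site. No C/EBP core match was found on either strand in the other 6 windows of the family, which include a second AXL window (chr19:41226505-41226804). Of 35116 promoter windows of this length, 10.5% held a C/EBP core match, so that 1 such match in a window is common. The AXL window also held 2 GC boxes (GGGCGG, in 45% of all windows), the TYRO3 window held an AP-1 match (TGANTCA, in 7.71%) at bases 31 to 37 beside 3 GC boxes, and the second AXL window held a TEAD match (GGAATG, in 14%). The CCAAT box, in 34.6% of all windows, was found in none of the 7. None of these motifs overlapped another in the windows. A match describes letters only, since no binding was measured here.

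TYRO3, the receptor for both ligands that is best known from the nervous system, fell moderately in both lines. The gene (ENSG00000092445) lies on chromosome 15 at 41557675 to 41583589 on the plus strand. In inducible cells its mean was 34.6 ± 1.02 CPM at 0 h, 25.9 ± 2.70 at 8 h, 29.0 ± 1.57 at 24 h and 26.7 ± 2.47 at 48 h (SD, n = 3). In CTRL cells it was 40.3 ± 1.39, 37.6 ± 2.88, 36.0 ± 1.41 and 30.4 ± 2.46 CPM. The inducible libraries lay under the CTRL libraries at 0, 8 and 24 h, and the groups overlapped at 48 h.

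In inducible cells TYRO3 differed from 0 h by -0.41 at 8 h (FDR = 1.87e-05), -0.26 at 24 h (FDR = 0.00125) and -0.40 at 48 h (FDR = 8.22e-06), each called. The 24 h call was lost in the model of all 24 libraries (FDR = 0.0113) and in the analysis of variance (FDR = 0.0521). The analysis of variance also lost the calls at 8 h (FDR = 0.0333) and 48 h (FDR = 0.0311). In CTRL cells the fall of 0.40 was called at 48 h (FDR = 0.000808), but not in the analysis of variance (FDR = 0.0292). The CTRL values were -0.075 at 8 h (FDR = 0.624) and -0.17 at 24 h (FDR = 0.0307). No interaction passed the cut-off, with -0.31 ± 0.0999 at 8 h (SE, FDR = 0.0820), -0.079 ± 0.0738 at 24 h and -0.0040 ± 0.101 at 48 h, so that a different time course in the lines was not shown. The line difference at 0 h (-0.22, FDR = 0.00114) was lost without the third inducible library (FDR = 0.0114). It was also lost in the model of all 24 libraries (FDR = 0.0156) and in the analysis of variance (FDR = 0.0138). The differences at 8 h (-0.52, FDR = 0.000565) and 24 h (-0.30, FDR = 4.80e-05) were kept in each leave-one-out fit. Both were lost in the analysis of variance (FDR = 0.0250 and 0.0131), and 48 h (-0.20, FDR = 0.0650) was not called. The pseudogene TYRO3P, a near copy, held 12 to 48 counts a library against 307 to 787 for TYRO3, and the handling of reads that match both is not given in the sources used here.

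MERTK, the receptor that macrophages use to engulf apoptotic cells, was the scarcest receptor and was lower in inducible cells throughout. The gene (ENSG00000153208) lies on chromosome 2 at 111898607 to 112029561 on the plus strand. Its means were 3.87 ± 0.442, 3.50 ± 0.924, 4.76 ± 0.161 and 6.64 ± 1.25 CPM in inducible cells at 0, 8, 24 and 48 h, and 6.12 ± 0.629, 6.33 ± 0.952, 7.53 ± 0.488 and 11.1 ± 1.13 CPM in CTRL cells (SD, n = 3). These values rest on 36 to 250 counts. The groups did not overlap at any time.

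The line difference of MERTK was -0.68 at 0 h (FDR = 0.000259), -0.81 at 8 h (FDR = 0.00394), -0.65 at 24 h (FDR = 1.87e-05) and -0.76 at 48 h (FDR = 0.000312). The 8 h call was lost without the first or the third inducible library or the second CTRL library (FDR = 0.0180 to 0.0233). In the analysis of variance the differences at 0, 8 and 48 h were lost (FDR = 0.0199, 0.0626 and 0.0353). From 0 to 48 h MERTK rose in both lines, by 0.77 in inducible cells (SE 0.143, FDR = 7.55e-05) and by 0.86 in CTRL cells (SE 0.120, FDR = 0.000112). Neither rise was called in the analysis of variance (FDR = 0.0480 in inducible and 0.0155 in CTRL cells). The difference of these rises was -0.10 (SE 0.196, FDR = 0.819). An approximate 95% interval, from the SE and the normal distribution, was -0.49 to 0.28, so that unequal rises within it remain possible. This interval is somewhat narrower than the F-test would give. The last step, from 24 to 48 h, was 0.46 in inducible cells, just beyond the cut-off (FDR = 0.0101, and 0.00379 without the third library of 48 h). In CTRL cells this step was 0.59 (FDR = 0.00103). It was lost without the second library of 24 h (FDR = 0.0122) and in the analysis of variance (FDR = 0.0281).

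GAS6, the ligand of all 3 receptors, was higher in inducible than in CTRL cells in every library of every time. The gene (ENSG00000183087) lies on chromosome 13 at 113820549 to 113864076 on the minus strand, and 421 of its exonic bases (7%) overlap GAS6-AS1 on the other strand. Inducible libraries held 10.7, 10.3 and 9.65 CPM at 0 h, 7.86, 8.46 and 7.68 CPM at 8 h, 10.4, 9.60 and 9.49 CPM at 24 h, and 13.4, 12.1 and 11.2 CPM at 48 h. CTRL libraries held 3.92, 4.08 and 3.65 CPM at 0 h, 4.21, 4.52 and 3.20 CPM at 8 h, 3.66, 4.44 and 3.37 CPM at 24 h, and 7.35, 6.28 and 6.15 CPM at 48 h. The lowest inducible library (7.68 CPM) thus lay above the highest CTRL library (7.35 CPM) even across times. GAS6-AS1 had 1 to 9 counts a library against 57 to 276 for GAS6, and whether the counting used strand is not given in the sources used here.

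The line difference of GAS6 was 1.39 at 0 h (SE 0.110, FDR = 2.17e-09), 1.02 at 8 h (SE 0.139, FDR = 0.000108), 1.36 at 24 h (SE 0.117, FDR = 2.08e-10) and 0.88 at 48 h (SE 0.112, FDR = 1.89e-05), and each was called in every leave-one-out fit. The 8 h difference was lost in the analysis of variance (FDR = 0.0123). In CTRL cells GAS6 rose by 0.77 from 0 to 48 h (FDR = 0.000519), with 0.063 at 8 h and -0.028 at 24 h. The analysis of variance did not call the rise at 48 h (FDR = 0.0126). In inducible cells the 48 h value was 0.24 (FDR = 0.0301) and the 24 h value -0.058 (FDR = 0.709). A fall of 0.34 at 8 h was called (FDR = 0.00708), but was lost with DESeq2 (FDR = 0.0369) and without the first or second library of 0 h or the first or the third of 8 h (FDR = 0.0183 to 0.0319). The same call was lost without a filter on low counts (FDR = 0.0126), in the model of all 24 libraries (FDR = 0.0169) and in the analysis of variance (FDR = 0.0218). The interaction at 48 h was -0.53 (SE 0.151, FDR = 0.0298) and did not pass the cut-off.

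PROS1, which encodes protein S, a cofactor of anticoagulation as well as a TAM ligand, showed the opposite difference between the lines. The gene (ENSG00000184500) lies on chromosome 3 at 93873051 to 93980003 on the minus strand, and its pseudogene PROS2P had 0 to 2 counts a library. Inducible libraries held 3.41, 3.37 and 2.92 CPM at 0 h, 2.20, 1.86 and 2.84 CPM at 8 h, 2.49, 2.52 and 2.94 CPM at 24 h, and 3.61, 4.53 and 4.13 CPM at 48 h. CTRL libraries held 9.86, 8.10 and 9.23 CPM at 0 h, 5.33, 5.55 and 5.85 CPM at 8 h, 9.23, 8.41 and 7.93 CPM at 24 h, and 15.9, 20.002 and 15.7 CPM at 48 h. Every CTRL library exceeded every inducible library, across times as well, and the highest values were those of CTRL cells at 48 h.

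PROS1 differed between the lines by -1.49 at 0 h (SE 0.125, FDR = 4.99e-09), -1.29 at 8 h (SE 0.169, FDR = 8.19e-05), -1.67 at 24 h (SE 0.128, FDR = 2.22e-11) and -2.07 at 48 h (SE 0.128, FDR = 1.46e-08). At 48 h this was 4.20-fold lower expression in inducible cells. In the analysis of variance the line difference at 8 h was lost (FDR = 0.0109). In CTRL cells PROS1 fell by 0.68 at 8 h (FDR = 0.00802) and rose by 0.92 from 0 to 48 h (FDR = 4.94e-05). The step from 24 to 48 h alone was a rise of 1.03 (FDR = 3.92e-05), since the 24 h level was 0.11 under that of 0 h on the log2 scale (-0.11, not called). The rises from 0 to 48 h and from 24 to 48 h were lost in the analysis of variance (FDR = 0.0161 and 0.0165). The fall at 8 h in CTRL cells was lost in the replicate block (FDR = 0.0345), in the analysis of variance (FDR = 0.0833) and without any 1 library of 0 h or the second of 8 h (FDR = 0.0157 to 0.0495). The rise of 0.58 from 8 to 24 h (FDR = 0.00999) was lost with DESeq2 (FDR = 0.0119), with at least 10 counts in every library (FDR = 0.0110), in the block (FDR = 0.0257) and in the analysis of variance (FDR = 0.0651). It was also lost without the second library of 8 h or any 1 of 24 h (FDR = 0.0347 to 0.0593).

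In inducible cells the PROS1 values against 0 h were -0.52 at 8 h (FDR = 0.0314, and 0.00949 without the third library of 8 h), -0.29 at 24 h and 0.32 at 48 h (FDR = 0.0759). The rise of 0.61 from 24 to 48 h was called (FDR = 0.00384), but was lost with DESeq2 (FDR = 0.0224), in the analysis of variance (FDR = 0.0391) and without the first or second library of 24 h or the second or the third of 48 h (FDR = 0.0156 to 0.0344). The interaction at 48 h was -0.60 (SE 0.189, FDR = 0.050) and was not called.

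**Figure D2:**
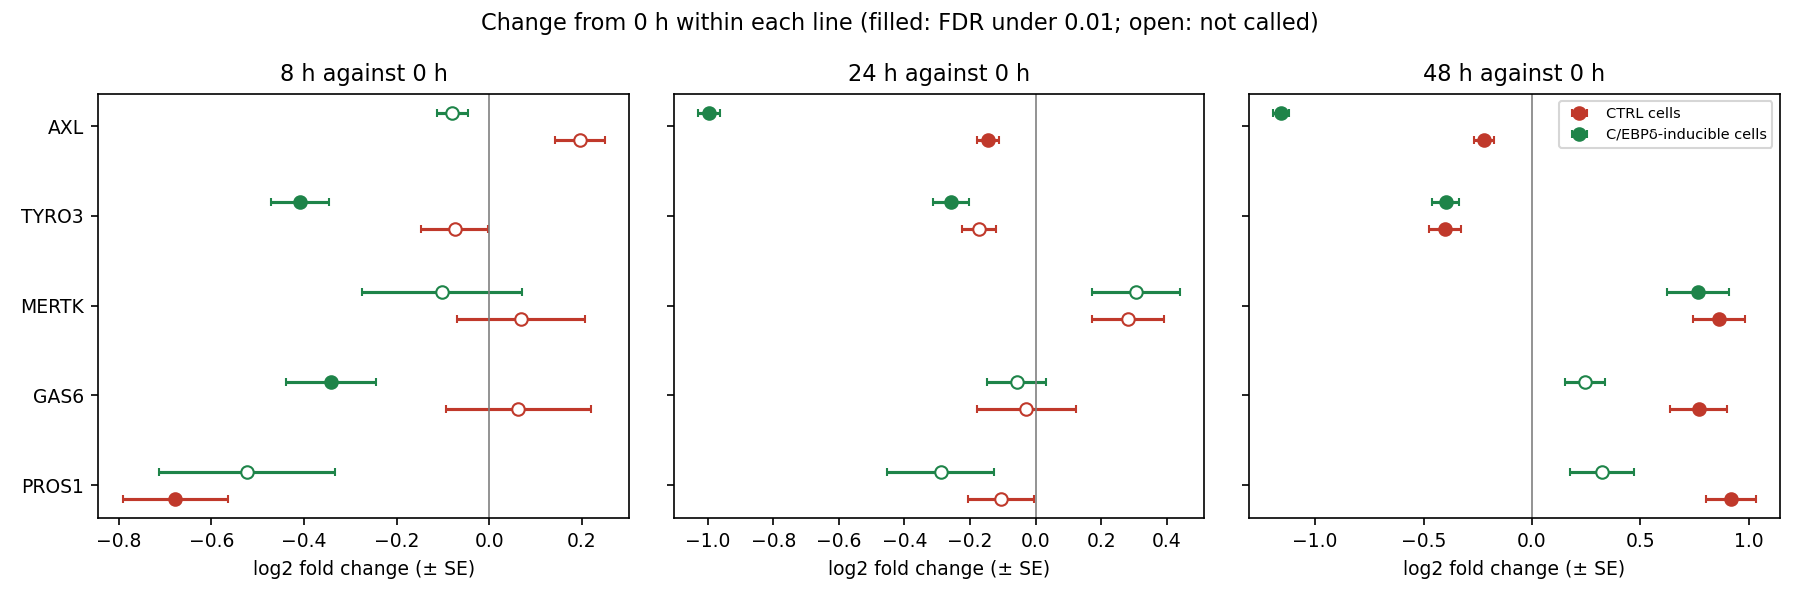
Log2 fold change from 0 h with its SE (horizontal axis) for each of the 5 genes (vertical axis) at 8, 24 and 48 h, in C/EBPδ-inducible cells (green) and CTRL cells (red), from 3 libraries a group. Filled points passed an FDR of 0.01. AXL in inducible cells stands at -0.996 and -1.16 at 24 and 48 h, apart from its CTRL values of -0.15 and -0.22, while MERTK moved by 0.77 and 0.86 in the 2 lines at 48 h.

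Counted together, all 5 genes were called between the lines at 0 h, where 43.9% of all genes tested were called, at 8 h (31.8%) and at 24 h (46.9%), and 4 of 5 at 48 h (38.3%). AXL and GAS6 were the higher members at 0 and 8 h, and GAS6 alone at 24 and 48 h. In inducible cells against 0 h, 2 of 5 were called at 8 h (TYRO3 and GAS6, lower) against 30.5% of all genes, 2 at 24 h (AXL and TYRO3, lower) against 15.5%, and 3 at 48 h (AXL and TYRO3 lower, MERTK higher) against 38.7%. In CTRL cells, 1 of 5 was called at 8 h (PROS1, lower) against 1.7% of all genes, 1 at 24 h (AXL, lower) against 6.06%, and all 5 at 48 h (MERTK, GAS6 and PROS1 higher, AXL and TYRO3 lower) against 30%.

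Between consecutive times, 1 of 5 was called in inducible cells from 8 to 24 h (AXL, lower) against 29.6% of all genes, and 2 from 24 to 48 h (PROS1 higher, AXL lower) against 23.8%. In CTRL cells these were 2 of 5 from 8 to 24 h (PROS1 higher, AXL lower) against 2.44%, and 3 from 24 to 48 h (MERTK, GAS6 and PROS1, higher) against 23.5%. In the interaction of line and time, AXL was the 1 member called at 24 h, where 5.84% of 16224 genes were called, and again at 48 h, where 5.54% were called. At 8 h, 0 of 5 were called by edgeR, by DESeq2 and by the analysis of variance, against 1.66% of all genes, although 3 of 5 had an unadjusted p under 0.05, and a model of all 24 libraries called AXL. The comparisons of one line share their 0 h libraries, and the calls at several times are therefore not independent.

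To compare levels between the genes, CPM were divided by the exonic length in kilobases. On this scale AXL led in all 8 groups, with 46.3 ± 1.48 CPM per kilobase in inducible and 30.0 ± 0.782 in CTRL cells at 0 h, and 21.1 ± 0.424 and 25.7 ± 0.671 at 48 h (SD, n = 3). TYRO3 came next in 7 groups, at 2.40 to 3.74 CPM per kilobase in these, the exception being CTRL cells at 48 h, where PROS1 had 3.26 ± 0.460 and TYRO3 2.83 ± 0.228 with overlapping libraries. In inducible cells the order was then GAS6, MERTK and PROS1 at each time, and libraries of GAS6 and MERTK overlapped at 48 h. In CTRL cells GAS6 was last at each time, MERTK and PROS1 overlapped at 0, 24 and 48 h, and TYRO3 and MERTK overlapped at 48 h. With the longest transcript as the length, GAS6 stood above TYRO3 in inducible cells at 24 and 48 h, since its longest transcript (2646 bp) is much shorter than the union of its exons (6015 bp), and PROS1 above MERTK in CTRL cells at 24 h.

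AXL made up 91.8 ± 0.283% of the receptor sum per kilobase in inducible and 85.2 ± 0.391% in CTRL cells at 0 h, and 83.8 ± 1.83% and 82.3 ± 1.60% at 48 h. MERTK held 1.86 ± 0.245% in inducible and 4.20 ± 0.366% in CTRL cells at 0 h, and 6.37 ± 1.09% and 8.61 ± 0.874% at 48 h. The receptor sum itself went from 50.5 ± 1.45 to 25.2 ± 0.612 CPM per kilobase in inducible cells over 48 h, and from 35.2 ± 0.773 to 31.2 ± 0.372 in CTRL cells. The receptor mRNA thus stayed mainly AXL in every group.

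The ligand make-up differed more between lines than between times. GAS6 was 72.4% to 76.5% of the ligand sum per kilobase in the 4 inducible groups and 25.3% to 38.3% in the 4 CTRL groups (group means). With the longest transcript as the length these were 79.5% to 82.8% and 33.4% to 47.9%. The ligand sums overlapped between the lines at 0 h, with 2.31 ± 0.135 CPM per kilobase in inducible and 2.37 ± 0.153 in CTRL cells. They also overlapped at 8 h, with 1.77 ± 0.0457 and 1.72 ± 0.0819, and at 24 h, with 2.14 ± 0.0654 and 2.25 ± 0.163. At 48 h they were 2.81 ± 0.146 and 4.36 ± 0.431. This overlap depended on the length used, since with the longest transcript the sums were higher in inducible cells and did not overlap at 0 h (4.79 ± 0.269 against 4.11 ± 0.228), at 8 h (3.69 ± 0.0691 against 3.13 ± 0.207) or at 24 h (4.49 ± 0.156 against 3.92 ± 0.298). AXL exceeded the 2 ligands together 20.1-fold in inducible and 12.7-fold in CTRL cells at 0 h, and 7.51-fold and 5.93-fold at 48 h. With the longest transcript these were 10.5-fold and 7.96-fold at 0 h and 3.95-fold and 3.75-fold at 48 h.

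**Figure D3:**
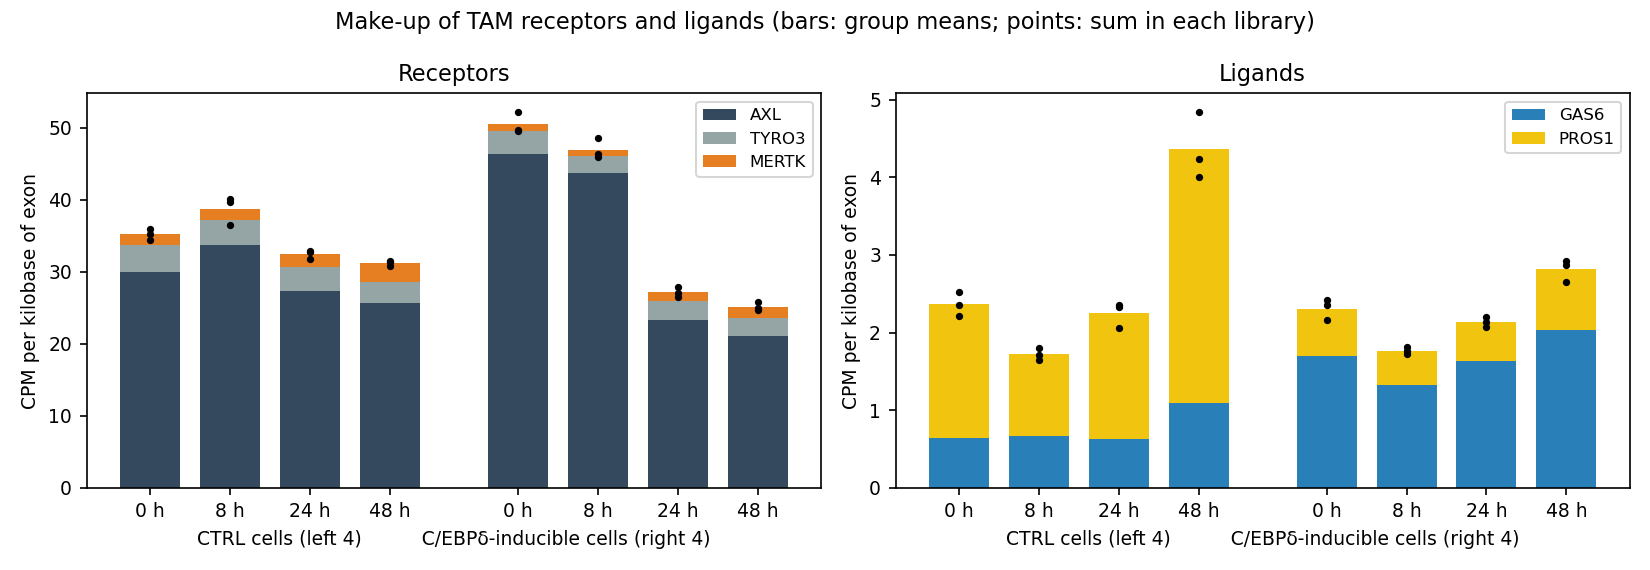
CPM per kilobase of exon (vertical axes) of the receptors (left) and the ligands (right) in CTRL cells and in C/EBPδ-inducible cells at 0, 8, 24 and 48 h. Stacked bars are group means of 3 libraries and points are the sum in each library. AXL fills most of each receptor bar (82.3% to 93.1%), and GAS6 and PROS1 trade places between the lines, with a GAS6 to PROS1 ratio of 2.66 to 3.28 in inducible and 0.341 to 0.629 in CTRL groups.

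Among the genes that act on TAM receptors or ligands, the sheddases of AXL and MERTK are ADAM10 and ADAM17. The lists that follow are read against the 15.5% of all genes called in inducible cells at 24 h and the 5.84% called in the interaction. ADAM17 rose in inducible cells at 24 h by 0.25 (78.3 to 93.0 CPM, FDR = 2.38e-05), with an interaction of 0.23 (FDR = 0.00210), and ADAM10 was not called (-0.095, FDR = 0.0179). Of the genes of vitamin K-dependent carboxylation and propeptide cleavage, GGCX (0.13, FDR = 0.0505), VKORC1 (-0.18, FDR = 0.0811), VKORC1L1 (-0.015, FDR = 0.811) and FURIN (0.028, FDR = 0.810) were not called in inducible cells at 24 h, and none of these 4 was called in the interaction (FDR = 0.286 to 0.992). Between the lines at 0 h these 4 were lower in inducible cells, with FURIN, a protease that cleaves propeptides, at -0.75 (25.5 against 42.8 CPM, FDR = 1.27e-09), GGCX, the carboxylase, at -0.35, VKORC1 at -0.30 and VKORC1L1 at -0.13. Each of the 4 was called, in a comparison where 43.9% of all genes were called. The list held 5 genes, not all of which are reported here.

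Of 3 further reported ligands, LGALS3, a galectin, fell in inducible cells at 24 h by 0.43 (18.8 to 13.9 CPM, FDR = 0.000144) with an interaction of -0.47 (FDR = 0.000161), TUB was not called (-0.091) and TULP1 was not tested for lack of counts. LGALS3 was also lower in inducible cells at 0 h, by 2.62. Of 6 genes of phosphatidylserine exposure, 4 were tested, and the scramblase ANO6 alone was called, falling by 0.16 (FDR = 0.00609), with 0 of 5 tested called in the interaction by any of the 3 tools and 2 at an unadjusted p under 0.05. Of 12 other engulfment and phosphatidylserine receptors, 5 were tested and ADGRB1, a phosphatidylserine receptor, rose by 0.32 (17.9 to 22.4 CPM, FDR = 0.000635; interaction 0.42, FDR = 0.00742). Of 12 other proteins with a Gla domain, 3 were tested, and PRRG4 fell by 0.65 in inducible (FDR = 1.55e-06) and by 0.44 in CTRL cells (FDR = 1.88e-05), with 0 called in the interaction by the 3 tools and 0 at an unadjusted p under 0.05.

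Of 27 adaptors and signalling genes downstream of TAM receptors, 25 were tested in inducible cells at 24 h, 3 rose and 1 fell, which is 16% of the list against 15.5% of all genes, with a median of -0.0091 against 0.0036 for all genes. The adaptor CRKL rose by 0.27 (266 to 323 CPM, FDR = 1.47e-07; interaction 0.25, FDR = 0.000128) and SHC1 by 0.12 (FDR = 0.00127; interaction 0.21, FDR = 0.000117). The exchange factor gene DOCK1 rose by 0.16 (FDR = 0.00171; interaction 0.18, FDR = 0.0189), and SOCS3, an inhibitor of cytokine signalling, fell by 0.72 (14.8 to 9.06 CPM, FDR = 1.56e-06; interaction -0.51, FDR = 0.0121). In the interaction, 2 of 25 were called higher and 1 lower (12%, against 5.84% of all genes). The lower one was PIK3CB (-0.25, FDR = 0.00810), a catalytic subunit of PI3-kinase.

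Of 13 transcription factors reported to act on the AXL promoter, 2 rose and 5 fell in inducible cells at 24 h (53.8%, against 15.5% of all genes), with a median of -0.069. The AP-1 members FOSL1 and JUN fell by 0.79 (88.2 to 51.1 CPM, FDR = 6.43e-12) and by 0.62 (208 to 136 CPM, FDR = 4.45e-11), and they fell in CTRL cells too, by 0.21 and 0.33. The interaction was called for FOSL1 (-0.58, FDR = 3.23e-07) and not for JUN (-0.28, FDR = 0.0107). MZF1 fell by 0.25 and TEAD1 by 0.21, and neither interaction was called (FDR = 0.0253 and 0.154). Of the hypoxia-inducible factors, HIF1A rose by 0.26 (386 to 463 CPM, FDR = 1.76e-07; interaction 0.29, FDR = 2.45e-05) and EPAS1 by 0.55 (FDR = 2.45e-05; interaction 0.38, FDR = 0.726).

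Among the receptor tyrosine kinases, 58 genes with the TAM receptors included, 34 passed the filter over all libraries. Per kilobase AXL had rank 2 behind EPHA2 in inducible cells at 0 and 8 h and rank 4 at 24 and 48 h, behind EPHA2, EPHA4 and DDR2. In CTRL cells it had rank 4 at 0, 24 and 48 h and rank 3 at 8 h. With the longest transcript as the length its rank was 5 in inducible cells at 24 and 48 h and 6 in CTRL cells at 48 h.

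In inducible cells at 24 h, 31 of these kinases were tested, 2 rose (FGFR2 by 0.45 and IGF1R by 0.23) and 7 fell (29.0%, against 15.5% of all genes), with a median of 0.015 against 0.0036 for all genes. The largest falls were those of EPHA7 (-1.11, 29.2 to 13.5 CPM), AXL (-0.996), EGFR (-0.91, 253 to 136 CPM) and EPHA2 (-0.43, 390.3 to 289.7 CPM). The interaction at 24 h was called for 5 of 33 (15.2%, against 5.84% of all genes), with EGFR at -1.02 (SE 0.0450, FDR = 3.21e-14), AXL at -0.84, EPHA7 at -0.77 (SE 0.0961, FDR = 3.24e-06), EPHA2 at -0.37 (SE 0.0421, FDR = 7.62e-07) and IGF1R at 0.40 (SE 0.0444, FDR = 5.97e-07). Of the 4 receptors reported to pair with AXL, EGFR was the 1 called, and ERBB2 (-0.080), ERBB3 (0.45, FDR = 0.0888) and MET (0.041) were not. EGFR, like AXL, was a gene that the study picked for follow-up from its 24 h comparison. Both are counted in the shares of called kinases given above, which are therefore not independent of that choice.

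**Figure D4:**
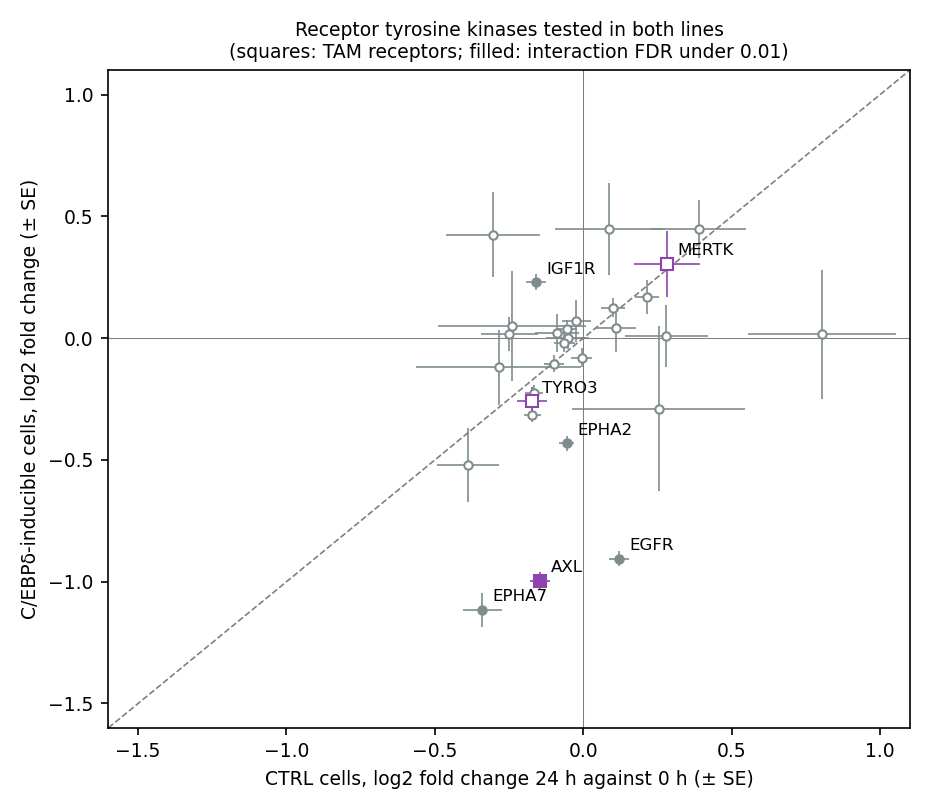
Log2 fold change at 24 h against 0 h, with SE, in CTRL cells (horizontal axis) and in C/EBPδ-inducible cells (vertical axis) for the receptor tyrosine kinases tested in both lines, from 3 libraries a group. Squares are the TAM receptors, filled symbols have an interaction FDR under 0.01, and the dashed line marks equal change. AXL (-0.15 and -0.996), EGFR (0.12 and -0.91), EPHA7 and EPHA2 lie under the line and IGF1R above it, whereas TYRO3 and MERTK lie close to it.

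Over all 24 libraries, the genes whose log2 CPM followed AXL most closely by Pearson's r were TLR5 (0.96), MACF1 (0.95), DISP2 (0.94), ANTXR2 (0.93) and EGFR (0.93). After each line's own mean was removed, they were ATP2B4 (0.98), PODXL (0.97), CLIC1 (0.97), ADGRG1 (0.97) and NAV1 (0.97). For TYRO3 the closest were DGCR2, KIF26A and GIT1 (0.94 to 0.95), and ADAM15, NELFB and RECQL4 with the line means removed (0.92 to 0.93). For MERTK they were MTA3, DNAJC4 and TLCD2 (0.95 to 0.96), and RGL3, CLK3 and MTA3 (0.92 to 0.93). For GAS6 they were BMP8B, JARID2 and ARAP1 (0.97 to 0.98), and DNM1, LRP1 and FADS2 (0.91 to 0.93). For PROS1 they included ENSG00000259737 (0.975) and DHTKD1 (0.974), and, with the line means removed, FBXL20, IFITM1 and PNRC1 (0.92 to 0.93). These values are descriptions over 24 libraries that share the same 8 groups, and many genes differ between the groups.

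The surroundings of GAS6 and AXL were described to see whether the line difference at 0 h reached beyond each gene. Of 17 genes tested with a start within 1 Mb of the GAS6 start, 7 were higher and 2 lower in inducible cells, with a median of 0.21 against 0.0098 for all genes, and 43.9% of all genes were called. The called neighbours with the largest differences were GRTP1 (1.38, 3.84 against 1.47 CPM), RASA3 (0.68, 43.9 against 27.3 CPM), UPF3A (0.49, 17.5 against 12.4 CPM) and TMCO3 (-0.47, 47.2 against 65.1 CPM). With a window of 250 kb, 2 genes were tested, at 0.46 and 0.97, neither of them called. Of 36 genes tested around AXL, 7 were higher and 8 lower with a median of 0.010, and the median within 250 kb was 0.21 over 9 genes.

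The called neighbours of AXL with the largest differences were MIA, which had 0 to 3 counts in inducible and 52 to 71 in CTRL libraries, TGFB1 (2.05, 88.0 against 21.2 CPM), which encodes transforming growth factor beta 1, RAB4B (-1.40) and ENSG00000279759 (0.88). Around TYRO3, MERTK and PROS1 the medians at 0 h were 0.11 over 39 genes, -0.12 over 20 and -0.25 over 6. In the interaction at 24 h, 1 of 40 genes around AXL was called, against 5.84% of all genes.

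**Figure D5:**
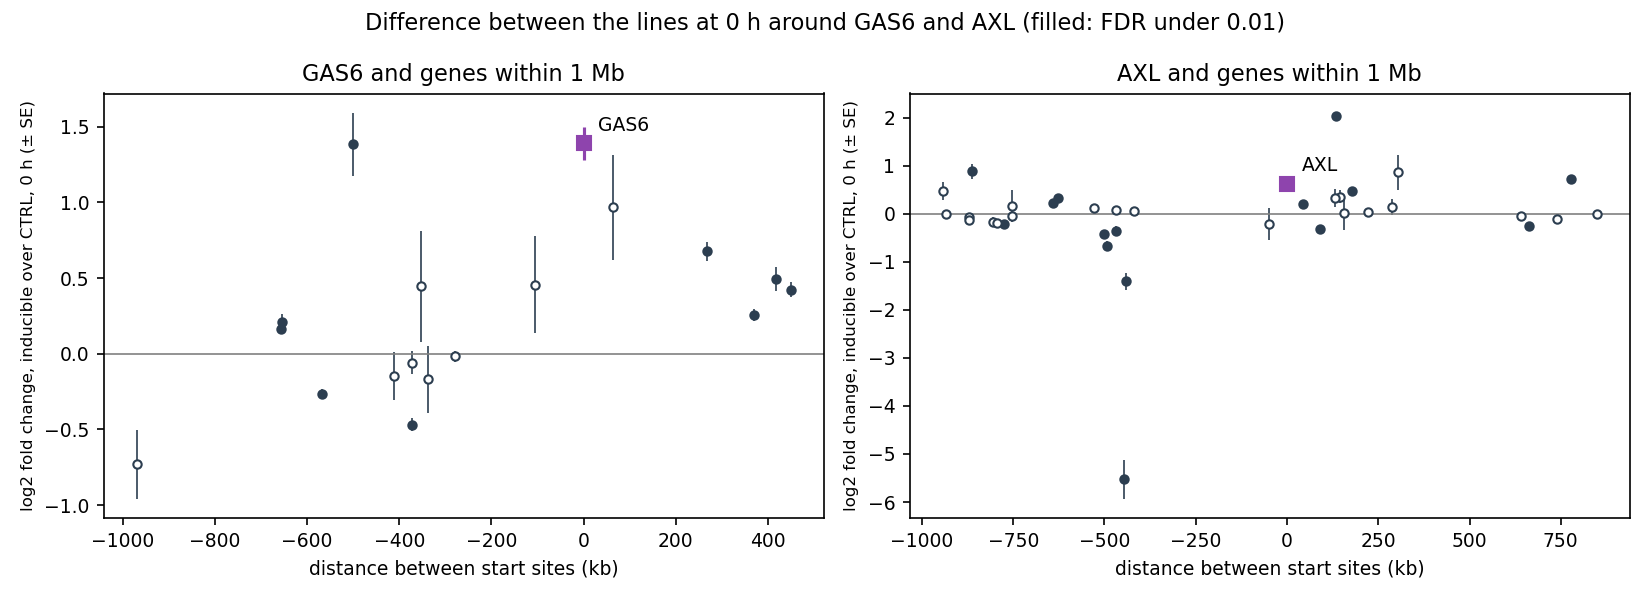
Log2 fold change of C/EBPδ-inducible over CTRL cells at 0 h with its SE (vertical axes) against the distance between start sites in kb (horizontal axes) for genes within 1 Mb of GAS6 (left) and AXL (right), 3 libraries a group. The purple square is the gene itself, filled circles passed an FDR of 0.01 and open ones did not. GAS6 stands at 1.39 with its neighbours RASA3 at 0.68 and TMCO3 at -0.47, and the lowest point around AXL is MIA, whose fitted value rests on 0 to 3 counts in inducible libraries.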

How the data were processed

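Libraries came from rRNA-depleted RNA of cells seeded in triplicate wells. The authors used GRCh38 as the genome and HTSeq for the counts per gene. The submitters' processing notes list Trimmomatic 0.36 and HISAT2 2.3.4.3, whereas the study's methods give other versions of both. The authors deposited the raw counts, with no normalization. Replicates are wells of the same line, so that p-values measure the spread between wells only.

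All 24 columns were matched to libraries by name. GENCODE 44 on GRCh38 gave names, exon lengths and coordinates (56558 of 60675 identifiers matched). The counts were scaled with TMM before testing by quasi-likelihood F-tests (edgeR 4.0.16, R 4.3.3), two-sided, in a model of the groups compared and after its filter on low counts. FDR is the Benjamini-Hochberg adjusted p over all genes tested, with calls at 0.01. Error is the SD over 3 libraries or the SE of the log2 fold change, the latter derived from the F statistic. An exact permutation test of 3 against 3 cannot go below 0.1. The interaction is the change from 0 h in inducible minus that in CTRL cells. Likeness used log2 CPM with a prior count of 2. The tests were checked on simulated counts.

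The members, gene lists and tests were chosen with earlier results of these data known. The text names the 5 members, up to 4 called genes per direction of each list at 24 h in inducible cells and in the interaction, the closest genes by likeness (some genes that this rule or a list holds are not reported here), and up to 4 called neighbours of GAS6 and AXL. Alternatives were DESeq2 1.42.0, other filters, a model of all 24 libraries, a replicate block, the analysis of variance on log2(CPM + 1) and leaving out each library. Libraries of the same number deviated together with r over 0.1 in all 3 pairs (r = 0.17 to 0.25) in CTRL cells at 24 h against 0 h, by the data and not the labels. In none of the other 16 comparisons did all pairs pass that value of r.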

Additional observations from a re-analysis of the deposited data

Results flagged for a closer look

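The change from 0 h differed between the lines, by the interaction test of edgeR at an FDR of 0.01, for 1 member and for several genes of the lists. AXL differed by -0.84 at 24 h (FDR = 3.46e-12) and by -0.94 at 48 h (FDR = 1.83e-09), with changes of -0.996 and -1.16 in inducible cells and of -0.15 and -0.22 in CTRL cells. At 24 h the interaction was -1.02 for EGFR, -0.77 for EPHA7, -0.37 for EPHA2 and 0.40 for IGF1R among the receptor tyrosine kinases. It was 0.23 for the sheddase ADAM17, -0.47 for the reported ligand LGALS3 and 0.42 for the phosphatidylserine receptor ADGRB1. Downstream of the receptors it was 0.25 for CRKL, 0.21 for SHC1 and -0.25 for PIK3CB, and among factors reported on the AXL promoter -0.58 for FOSL1 and 0.29 for HIF1A. Of the epithelial markers, KRT8 differed by -0.74, KRT18 by -0.47, KRT19 by -0.84 and CDH1 by 3.93, the last from 0 to 4 counts a library in inducible cells at 0 h.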

How the results depend on the processing

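Across the 85 log2 fold changes of the members (5 genes in 17 comparisons), 81 kept their direction and side of the cut-off with DESeq2, 81 without a filter, 82 with at least 10 counts in every library, 78 in a model of all 24 libraries, 79 with the replicate block and 56 with the analysis of variance, in which 27 were no longer called. Of 600 values with 1 library left out, 536 kept both. The fall of AXL in inducible cells at 24 and 48 h, its interaction at both times and the GAS6 and PROS1 differences between the lines at 0, 24 and 48 h were called under each of these alternatives.

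The number of members called moved by more than 1.5 times as follows. In inducible cells at 8 h against 0 h it was 1 with DESeq2, without a filter and in the model of all 24 libraries. In that model it was also 1 in inducible and 0 in CTRL cells at 24 h against 0 h, 2 in CTRL cells at 8 h against 0 h, and 1 in the interaction at 8 h. It was 1 with DESeq2 in inducible cells from 24 to 48 h, and 1 with DESeq2 or at least 10 counts in CTRL cells from 8 to 24 h. With the replicate block it was 0 in CTRL cells at 8 h against 0 h and from 8 to 24 h, and 4 in inducible cells from 24 to 48 h, where MERTK (FDR = 0.00899) and GAS6 (FDR = 0.00915) were added. With the analysis of variance it was 3 and 1 between the lines at 0 and 8 h, 0, 1 and 1 in inducible cells at 8, 24 and 48 h against 0 h, 0 in CTRL cells at each of these times, and 0 in inducible cells from 24 to 48 h and in CTRL cells in both steps. With 1 library left out, the number ranged from 1 to 2 in inducible cells at 8 h against 0 h and from 8 to 24 h, from 0 to 2 in inducible cells from 24 to 48 h and in CTRL cells from 8 to 24 h, and from 0 to 1 in CTRL cells at 8 and 24 h against 0 h and in the interaction at 8 h.

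Values that changed sign were near 0 and not called. The TYRO3 interaction at 48 h was 0.0091 with DESeq2, 0.0033 without a filter, 0.016 with at least 10 counts, 0.010 in the model of all 24 libraries and 0.00088 with the analysis of variance, which gave -0.0035 for MERTK at 24 h. With 1 library left out the ranges were -0.35 to 0.0061 and -0.040 to 0.17 for MERTK at 8 h against 0 h in inducible and CTRL cells, -0.040 to 0.19, -0.15 to 0.062 and -0.22 to 0.012 for GAS6 in CTRL cells at 8 h and at 24 h against 0 h and at 24 h against 8 h, -0.022 to 0.13 and -0.11 to 0.11 for the interactions of MERTK and GAS6 at 24 h, and -0.078 to 0.053 and -0.24 to 0.010 for those of TYRO3 and MERTK at 48 h. Causes were not tested.

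Over all genes, the analysis of variance gave fewer calls in all 17 comparisons, by over 1.5 times in 16, for example 498 against 2407 in inducible cells at 24 h against 0 h. In CTRL cells at 8 h against 0 h, 259 genes were called, against 430 with DESeq2, 843 without a filter, 1229 in the model of all libraries and 87 with the block. From 8 to 24 h in CTRL cells, 375 were called, against 952, 1374 and 244 without a filter, in that model and with the block. In the interaction, 269 were called at 8 h, against 423, 936, 441 and 162 with DESeq2, without a filter, in that model and with the block, and 948 at 24 h, against 603 in that model. That model also called 3127 against 4693 in inducible cells at 8 h and 582 against 921 in CTRL cells at 24 h. The block, whose numbers are not a design of the study, changed no call of a member beyond those named. Counts under 100 for MERTK, GAS6 and PROS1 in several libraries limit the precision of their smaller differences.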
